A study of Canis lupus familiaris with 9 samples.

Results

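The genes described here are 10, of 15115 named on the array, that act as components of growth hormone and JAK-STAT signalling in dog skeletal muscle: the growth hormone receptor gene GHR, the kinases JAK1 and JAK2, the transcription factors STAT3, STAT5A and STAT5B, and the inhibitors CISH, SOCS1, SOCS2 and SOCS3. Their 24 probe sets are those of the 43035 on the array that carry 1 of these 10 names as their sole annotated symbol. Each gene is represented by 1 probe set, chosen by its highest mean over all 9 arrays, with the gene's other probe sets given beside it. The 10 names were put together with earlier results of these data in view, in which CISH and SOCS2 had the smallest p-values of the comparison, so the differences of those 2 genes are a description and not independent evidence. The 5 ad libitum dogs (animals 2, 5, 6, 7 and 8) ate without restriction, and the 4 control dogs (animals 1, 3, 4 and 9) received the amount that held their baseline body weight. All were intact female beagles, 4 years old, sampled once after 24 weeks and after an overnight fast, and both groups ate the same food, Purina Pro Plan Performance Formula. Each dog is a separate animal with 1 Affymetrix canine array. The labels do not name the muscle, and hormone levels in blood were not analysed here.

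Growth hormone binds a receptor that carries the kinase JAK2. The active kinase phosphorylates the receptor and STAT5 proteins, which enter the nucleus and switch on target genes. Among the genes that STAT5 induces are CISH and SOCS2, whose products bind the phosphorylated receptor and damp the signal, while SOCS1 and SOCS3 inhibit JAK kinases directly, so that these inhibitors form a feedback loop. In muscle, growth hormone acts on growth and on fuel use, and STAT3 answers mainly to cytokines of the interleukin-6 family.

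Values are log2 GCRMA values, an array summary in which 1 unit is a 2-fold step, and differences are ad libitum minus control. The arrays resembled each other, with r = 0.976 to 0.994 between pairs across probe sets, and no 2 arrays held identical values. The median correlation of an array with the others was lowest for ad libitum dog 5, at 0.982, and then for ad libitum dog 2, at 0.986. Muscle fibre markers stood at a mean of 15.0 to 15.6 in ad libitum dogs and 15.4 to 15.6 in control dogs, with 9 of the 10 listed genes found and all 9 measured. The GAPDH 3' minus 5' value, a sign of RNA quality, was 2.21 ± 0.0676 in ad libitum dogs (SD, n = 5) and 2.09 ± 0.107 in control dogs (SD, n = 4), with an exact two-sided permutation p of 0.0714. The test (limma) was run on the 18394 probe sets that exceeded log2 4 on 4 or more arrays, and these included 20 of the 24 probe sets and 8 of the 10 genes. After Benjamini-Hochberg adjustment 0 of the 18394 passed an adjusted p of 0.05, a share of 0%, and with no adjustment 1088 (5.91%) had a limma p under 0.05, of which 406 (2.21%) were lower and 682 (3.71%) higher in ad libitum dogs. All ad libitum dogs lay below all control dogs for 0.696% of the tested probe sets and above them for 0.739%. No gene described here passed the adjusted test, so every difference below is a measured value and not a called change.

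CISH was the gene of the 10 that lay furthest below its control level in ad libitum muscle. Its 1 probe set read 1.60 in ad libitum dog 2, 1.63 in dog 5, 3.96 in dog 6, 2.22 in dog 7 and 3.46 in dog 8, against 7.11 in control dog 1, 7.33 in dog 3, 6.16 in dog 4 and 7.29 in dog 9. The groups did not overlap, and the highest ad libitum dog, animal 6, lay more than 2 log2 units below the lowest control dog, animal 4. The mean was 2.57 ± 1.08 in ad libitum dogs (SD, n = 5) and 6.97 ± 0.550 in control dogs (SD, n = 4). The log2 difference of -4.40 had a standard error of 0.53 and a 95% interval from -5.58 to -3.21, and its limma adjusted p over all tested probe sets was 0.230.

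CISH was tested only because its 4 control arrays lay above log2 4. All 5 ad libitum arrays lay below that value, where GCRMA values have little meaning as levels. With every value below 4 raised to 4, the log2 difference was -2.97 (SE 0.225), or 7.84-fold lower in ad libitum muscle than in control muscle. The floor makes the difference smaller, but 7.84 is an estimate with its own error and not a lower limit. Under that floor the limma adjusted p was 0.00461, since the floor gave all 5 ad libitum dogs 1 value. Over the other alternatives and with 1 dog left out it ran from 0.0696 to 1, so the call at 0.05 exists only with the floor.

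SOCS2, whose product marks the growth hormone receptor for degradation, also lay lower in every ad libitum dog. Its 1 probe set read 5.51, 4.73, 5.87, 4.29 and 6.48 in ad libitum dogs 2, 5, 6, 7 and 8, against 7.79, 7.34, 7.79 and 7.81 in control dogs 1, 3, 4 and 9. The control dogs lay within 0.477 of each other, and the ad libitum dogs spread over 2.19 log2 units, all of them below the lowest control dog. Means were 5.38 ± 0.879 in ad libitum dogs (SD, n = 5) and 7.68 ± 0.232 in control dogs (SD, n = 4). The log2 difference was -2.31 (SE 0.41, 95% interval -3.22 to -1.40), or 4.95-fold lower in ad libitum muscle, with a limma adjusted p of 0.796. Unlike CISH, SOCS2 was above log2 4 on all 9 arrays, so its size does not depend on that floor. Of all 18394 tested probe sets, 7 (0.0381%) differed by more than 2 log2 units downward, SOCS2 and CISH among them. Both genes were chosen with their small p-values known, so this share is a description and not evidence.

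**Figure D1:**
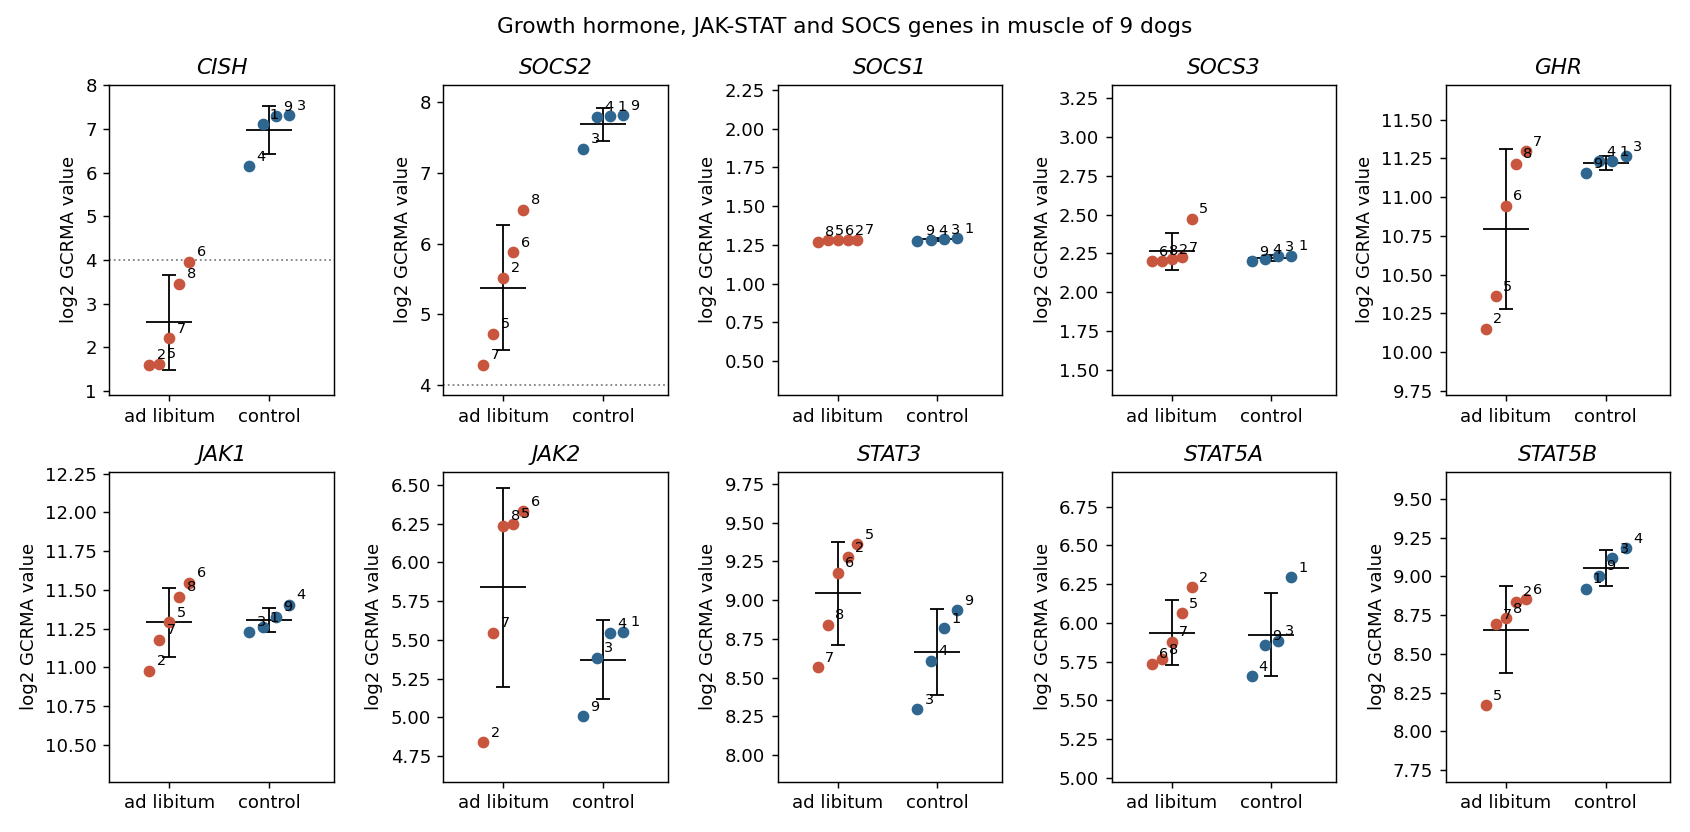
Log2 GCRMA values (y axis, a different range in each panel) of the 10 genes in ad libitum dogs (red, left) and control dogs (blue, right). Each point is a dog with its animal number, black bars show the mean ± SD and the dotted line marks log2 4. The groups separate for CISH, SOCS2 and narrowly for STAT5B, GHR spreads over 1.15 units in ad libitum dogs and 0.112 in control dogs, and SOCS1 and SOCS3 lie flat at low values.

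SOCS1 and SOCS3, the other inhibitors among the 10, had no measurable signal in either group. SOCS1 read 1.27 to 1.28 in ad libitum dogs and 1.28 to 1.29 in control dogs, and the higher probe set of SOCS3 read 2.20 to 2.47 in ad libitum dogs and 2.20 to 2.24 in control dogs. The other SOCS3 probe set averaged 1.57 in ad libitum dogs and 1.58 in control dogs. All 3 probe sets lay below log2 4 on all 9 arrays and were not tested, so no difference in SOCS1 or SOCS3 was detectable with these probes. A low value does not show that the transcript was missing.

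The growth hormone receptor gene was measured far above the filter in all dogs, with 2 ad libitum dogs below all others. GHR read 10.2, 10.4, 10.9, 11.3 and 11.2 in ad libitum dogs 2, 5, 6, 7 and 8, against 11.2, 11.3, 11.2 and 11.2 in control dogs 1, 3, 4 and 9. Dogs 2 and 5, and to a smaller degree dog 6, lay below the control range, dog 8 lay inside it, and dog 7 held the highest value of all 9 dogs. Means were 10.8 ± 0.514 in ad libitum dogs (SD, n = 5) and 11.2 ± 0.0470 in control dogs (SD, n = 4), a log2 difference of -0.43 (SE 0.24, 95% interval -0.97 to 0.12, limma adjusted p = 0.796). The other probe set gave -0.42 and ranked the same 2 dogs lowest, at 10.1 and 10.2. Leaving out ad libitum dog 2 moved the difference to -0.27.

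For both receptor-bound kinases the 95% interval of the difference over all 9 dogs included 0. JAK2, the kinase of the growth hormone receptor, read 4.84, 6.25, 6.33, 5.54 and 6.24 in ad libitum dogs 2, 5, 6, 7 and 8, against 5.55, 5.38, 5.54 and 5.01 in control dogs 1, 3, 4 and 9. Dogs 5, 6 and 8 lay above every control dog, and dog 2 lay below every control dog. The log2 difference was 0.47 (SE 0.31, 95% interval -0.23 to 1.17, limma adjusted p = 0.812), and it was 0.39 by the other probe set. Without ad libitum dog 2 it was 0.72, with an unadjusted limma p of 0.00853 and an adjusted p of 0.843, and with array weights it was 0.68, with an unadjusted limma p of 0.0297 and an adjusted p of 0.463. JAK1, which serves interferon and interleukin-6 type receptors, averaged 11.3 ± 0.225 in ad libitum dogs (SD, n = 5) and 11.3 ± 0.0774 in control dogs (SD, n = 4). Its log2 difference was -0.016 (95% interval -0.31 to 0.28, limma adjusted p = 0.990), and its 4 other probe sets gave -0.13 to -0.30. The direction of JAK1 turned to 0.032 with array weights and to 0.0092 with the adipocyte marker covariate.

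Of the 2 STAT5 genes, STAT5B had a lower mean in ad libitum dogs and STAT5A did not. STAT5B, the main STAT of growth hormone signalling in rodent liver and muscle, read 8.84, 8.17, 8.85, 8.69 and 8.73 in ad libitum dogs 2, 5, 6, 7 and 8, against 8.92, 9.12, 9.18 and 9.00 in control dogs 1, 3, 4 and 9. The groups did not overlap, but the highest ad libitum dog, at 8.85, lay close to the lowest control dog, at 8.92. The log2 difference was -0.40 (SE 0.16, 95% interval -0.75 to -0.049, limma adjusted p = 0.796), and it was -0.28 without ad libitum dog 5. The other STAT5B probe set gave a difference of -0.39, and there the groups overlapped.

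STAT5A averaged 5.94 ± 0.209 in ad libitum dogs (SD, n = 5) and 5.92 ± 0.268 in control dogs (SD, n = 4). The log2 difference was 0.012 with a 95% interval from -0.35 to 0.37 (limma adjusted p = 0.994), so differences of more than 0.37 in either direction lie outside the interval. Of its 3 other probe sets, 2 were measured and gave -0.0024 and -0.15, and the last lay near 1.9 on all arrays. The direction of STAT5A changed with median centring, array weights and both marker covariates. STAT5A and STAT5B are closely related in sequence, and how far a probe set of 1 gene also reads the other was not tested. Whether the 2 genes differ in their response was not tested either.

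STAT3 had a higher mean in ad libitum dogs on all 4 of its probe sets. The representative one read 9.27, 9.36, 9.18, 8.57 and 8.84 in ad libitum dogs 2, 5, 6, 7 and 8, against 8.82, 8.30, 8.61 and 8.93 in control dogs 1, 3, 4 and 9. Dogs 2, 5 and 6 lay above every control dog, and dogs 7 and 8 lay within the control range. The log2 difference was 0.38 (SE 0.20, 95% interval -0.068 to 0.83, limma adjusted p = 0.796). The others gave 0.43, 0.30 and 0.46, and the 1 with 0.43 had an unadjusted limma p of 0.0247 and an adjusted p of 0.796.

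Among the representative probe sets, 3 of the 8 measured genes (CISH, SOCS2 and STAT5B) had all ad libitum dogs below all control dogs, where 0.696% of all tested probe sets did. The same 3 had an unadjusted limma p under 0.05 with a lower mean, against 2.21% of all tested probe sets, and 0 of the 8 did with a higher mean, against 3.71%. These counts describe a set that was drawn up with CISH and SOCS2 known, and CISH could be tested only through the group where it was high. Within genes, the probe sets mostly pointed 1 way. Both of GHR, all 5 of JAK1 and both of STAT5B were lower, and both of JAK2 and all 4 of STAT3 were higher. STAT5A had 1 higher and 2 lower. Probe sets of a gene were read on the same arrays, so a shared direction is not replication.

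**Figure D2:**
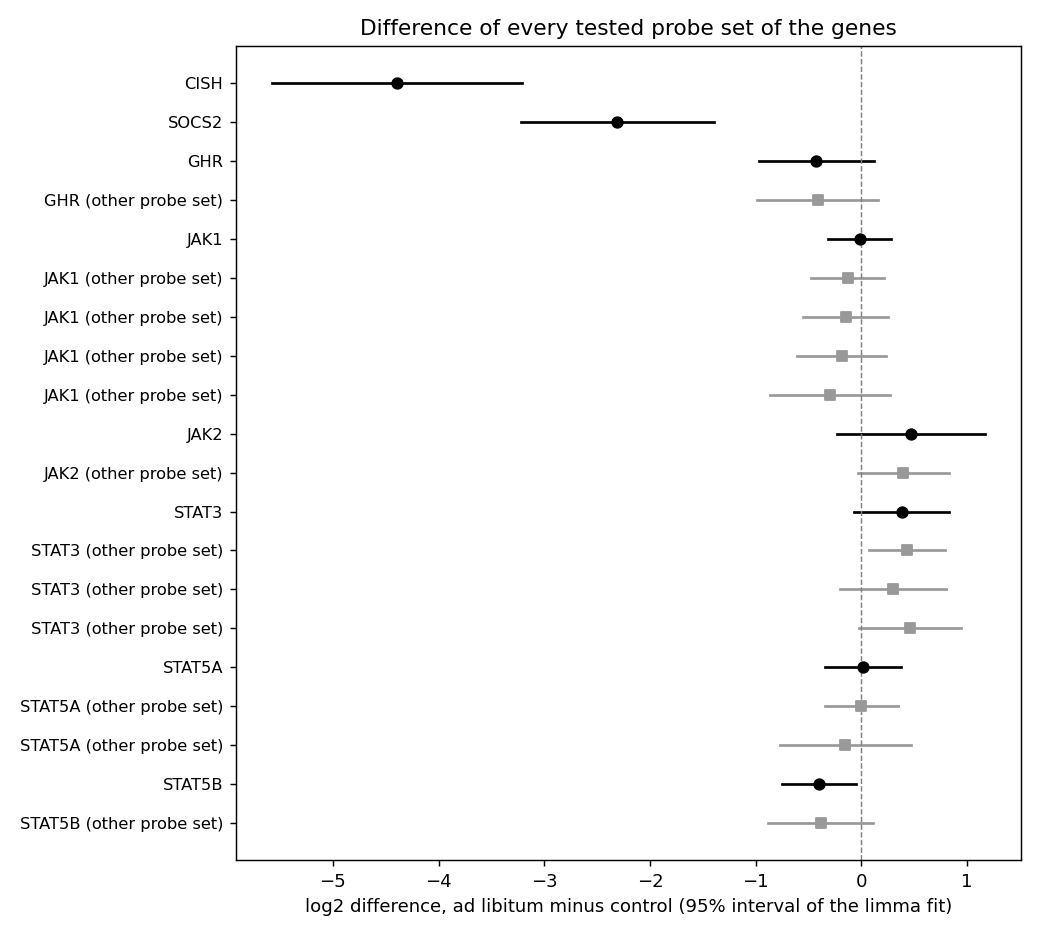
Log2 difference, ad libitum minus control (x axis), of the 20 tested probe sets with the 95% interval of the limma fit. Black circles are the representative probe sets and grey squares the others. CISH (-4.40) and SOCS2 (-2.31) lie far left, and apart from STAT5B (-0.40) and 1 STAT3 probe set (0.43) the intervals of the rest include 0.

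Of the markers of other cell types, those of macrophages, adipocytes and fibroblasts mostly had higher means in ad libitum muscle, and endothelial markers were split. In whole tissue RNA, a different number of cells of a type and a different amount of RNA per cell cannot be told apart. The mean of the 8 measured macrophage markers was 6.84, 8.51, 7.19, 5.38 and 6.36 in ad libitum dogs 2, 5, 6, 7 and 8, against 5.99, 5.31, 5.71 and 5.68 in control dogs 1, 3, 4 and 9. All 8 had higher means in ad libitum muscle (median log2 difference 1.20, against -0.0082 over all tested probe sets), and of the 13 listed, FCER1G lay below log2 4 on every array. The mean of the 12 adipocyte markers ranged from 8.00 to 9.96 in ad libitum dogs and from 7.37 to 9.05 in control dogs, with 11 of 12 higher and none below log2 4 on all arrays. The 10 fibroblast and fibro-adipogenic progenitor markers ranged from 8.22 to 12.0 in ad libitum dogs and from 8.03 to 9.38 in control dogs, with 10 of 10 higher. Endothelial markers ranged from 7.91 to 8.35 in ad libitum dogs and from 7.99 to 8.25 in control dogs, with 5 higher and 5 lower. Of the lymphocyte markers 1 was measured, JCHAIN, and 6 of 9 found lay below log2 4 on every array.

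The dogs that were high in macrophage markers, 5, 6 and 2, were the 3 dogs highest in STAT3 and the 3 lowest in GHR. With the macrophage marker mean as a covariate the log2 difference of GHR was -0.078 and that of STAT3 0.046, and with the adipocyte marker mean these were -0.099 and 0.029. STAT5B was at -0.21 with the macrophage and -0.34 with the adipocyte covariate, and JAK2 at 0.22 and 0.53. Which cells carried the GHR and STAT3 transcripts was not tested.

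The same covariates were fitted to CISH and SOCS2. With the macrophage covariate CISH differed by -4.16 and SOCS2 by -2.38, and with the adipocyte covariate by -4.59 and -2.74, with limma adjusted p-values between 0.610 and 1. Ad libitum dog 7 had macrophage, adipocyte and fibroblast marker means within the range of the control dogs. Its CISH value of 2.22 and SOCS2 value of 4.29 lay below all 4 control dogs, as did those of every ad libitum dog. The place of dog 7 was thus given by the lack of overlap in both genes. Dog 7 is 1 dog, and the CISH values of all ad libitum dogs lie below log2 4. The part of other cell types in the CISH and SOCS2 differences was not tested.

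**Figure D3:**
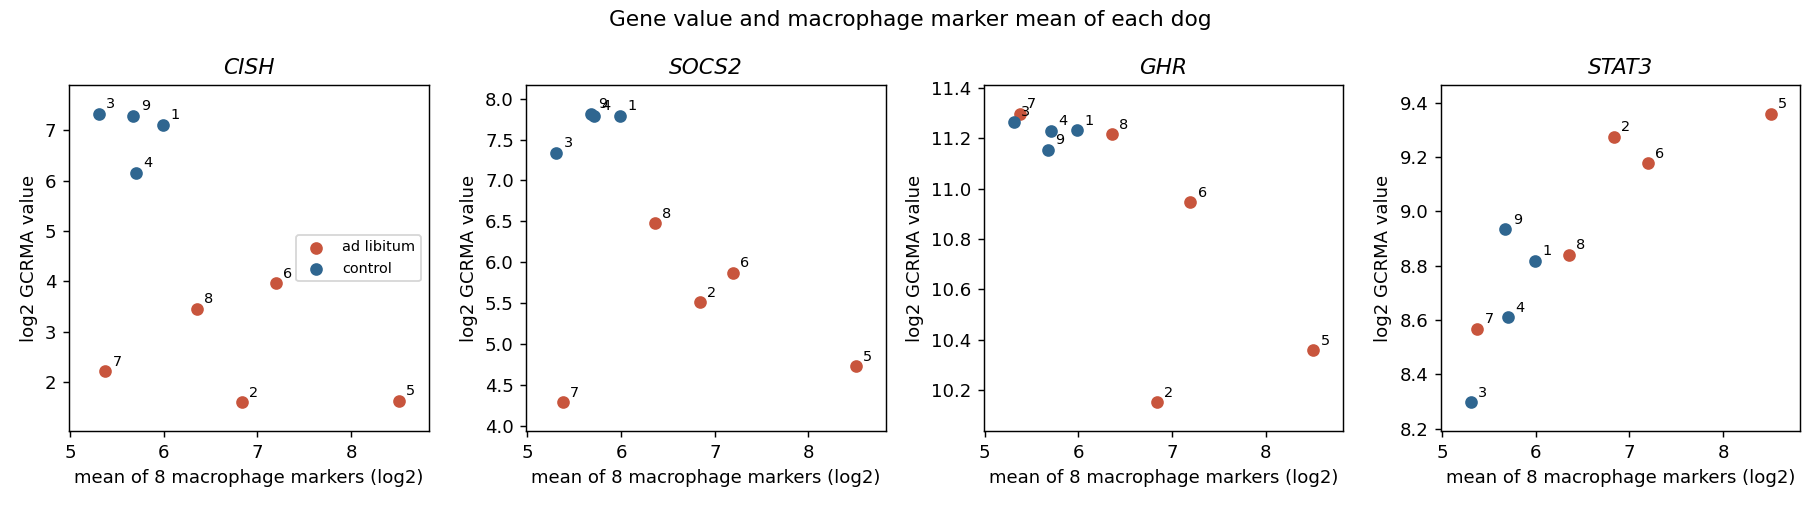
Log2 GCRMA value of CISH, SOCS2, GHR and STAT3 (y axes) against the mean log2 value of 8 macrophage markers (x axis) in each dog, with ad libitum dogs in red, control dogs in blue and animal numbers beside the points. Ad libitum dog 7 lies among the control dogs on the x axis and for STAT3, and just above them for GHR (11.3). Like every ad libitum dog, it lies below them for CISH (2.22) and SOCS2 (4.29).

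The rest of the pathway was read from lists grouped by role, and 40 genes outside the 10 were measured. Of these, 21 had higher and 19 lower means in ad libitum muscle, 0 passed the adjusted test and 4 had an unadjusted limma p under 0.05 (LEP, SHC1 and TIMP1 higher, MYC lower). That is 10% of the 40, beside 5.91% of all tested probe sets.

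Few other JAK and STAT genes were measured. STAT2, which acts with interferon receptors, differed by 0.22 and the kinase TYK2 by -0.13, while JAK3, STAT4 and STAT6 lay below log2 4 on every array. Of the SOCS box inhibitors outside the 10, SOCS5 averaged 10.6 ± 0.414 in ad libitum dogs (SD, n = 5) and 10.1 ± 0.243 in control dogs (SD, n = 4), a log2 difference of 0.45 (SE 0.22, limma adjusted p = 0.796). SOCS6 differed by -0.21 and SOCS7 was below log2 4 on every array. ELOB, ELOC, CUL5 and RNF7, the subunits of the ubiquitin ligase that SOCS boxes recruit, differed by 0.086, 0.012, -0.13 and 0.051. The list of SOCS box inhibitors and ligase subunits had 4 higher and 2 lower means and 0 past the adjusted test. Each of the 4 ligase differences was smaller than its standard error, 0.10 to 0.19.

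Of 17 other JAK-coupled receptor genes found on the array, 7 were measured, 4 with higher and 3 with lower means in ad libitum muscle and 0 past the adjusted test. Their log2 differences ran from -0.62 for IFNGR1, an interferon gamma receptor chain, to 0.34 for IL10RB, an interleukin-10 receptor chain. The shared interleukin-6 family chain IL6ST differed by 0.072, IL6R by -0.30 and LIFR, the receptor of leukaemia inhibitory factor, by -0.36. The prolactin, leptin and erythropoietin receptor genes PRLR, LEPR and EPOR were below log2 4 on every array. Among ligands, GH1, PRL, IL6, LIF and OSM were below log2 4 in every dog, and IL15, a cytokine made by muscle, differed by -0.085. Leptin, LEP, is made by fat cells and stood at 7.19 ± 1.13 in ad libitum dogs (SD, n = 5) and 4.78 ± 0.691 in control dogs (SD, n = 4), with all ad libitum dogs above all control dogs and a log2 difference of 2.41 (limma adjusted p = 0.796).

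The phosphatases and adaptors that shape the signal had differences in both directions, 4 higher and 7 lower of 11 measured. SHC1, an adaptor that links receptors to the RAS pathway, averaged 8.84 ± 0.343 in ad libitum dogs (SD, n = 5) and 8.28 ± 0.166 in control dogs (SD, n = 4), with no overlap, a log2 difference of 0.56 and a limma adjusted p of 0.796. PTPN6, a phosphatase abundant in blood cells, differed by 0.86 (SE 0.46), PTPN11 by -0.22, PTPN2 by -0.12 and the JAK2-binding adaptor SH2B1 by -0.046. PTPN6 read 7.05 in ad libitum dog 5, 4.62 to 5.32 in the other ad libitum dogs and 4.16 to 4.68 in control dogs. The insulin receptor substrate gene IRS1 differed by -0.35 (SE 0.19).

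Known growth hormone or STAT5 target genes other than CISH and SOCS2 did not share 1 direction. Of 7 measured, 2 had higher and 5 lower means in ad libitum muscle, with a median log2 difference of -0.18 against -0.0082 over all tested probe sets. The list includes BCL6, which STAT5 can silence, so these counts do not measure STAT5 activity. IGF1, the growth factor that mediates many effects of growth hormone, averaged 6.84 ± 1.22 in ad libitum dogs (SD, n = 5) and 5.88 ± 0.988 in control dogs (SD, n = 4), a log2 difference of 0.96 (SE 0.66). MYC averaged 4.18 ± 0.730 in ad libitum dogs (SD, n = 5) and 5.59 ± 1.09 in control dogs (SD, n = 4), a difference of -1.41 (SE 0.53), with overlapping groups. MYC read 2.88 in ad libitum dog 7, below log2 4, and 4.45 to 4.57 in the other ad libitum dogs. Control dogs 3 and 4 read 4.84 and 4.54, and control dogs 1 and 9 read 6.13 and 6.86. The size of the MYC difference thus rests in part on values near or below the filter. CDKN1A, a cell cycle inhibitor, differed by 1.04 (SE 0.57), and BCL6, a repressor that STAT5 can silence, by -0.39 (SE 0.19). IGFALS and PIM1 lay below log2 4 on every array, and CCND1, above it only in ad libitum dog 5 at 4.36, was not tested.

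All 5 measured STAT3 target genes had higher means in ad libitum muscle, and none passed the adjusted test. TIMP1, an inhibitor of matrix proteases, differed by 1.72 (SE 0.73), the metallothionein MT2A by 1.20 (SE 0.57) and FOS by 0.82 (SE 0.73). HIF1A differed by 0.28 (SE 0.24) and VEGFA by 0.11 (SE 0.16). Of the 8 listed genes found on the array, FGG, BCL3 and JUNB lay below log2 4 on every array. The median was 0.82, against -0.0082 over all tested probe sets, and the list mean ranged from 8.98 to 11.1 in ad libitum dogs and from 8.84 to 9.67 in control dogs. The highest dog, ad libitum dog 5, was also the highest in macrophage and fibroblast markers, and the part of those cells in the list was not tested.

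**Figure D4:**
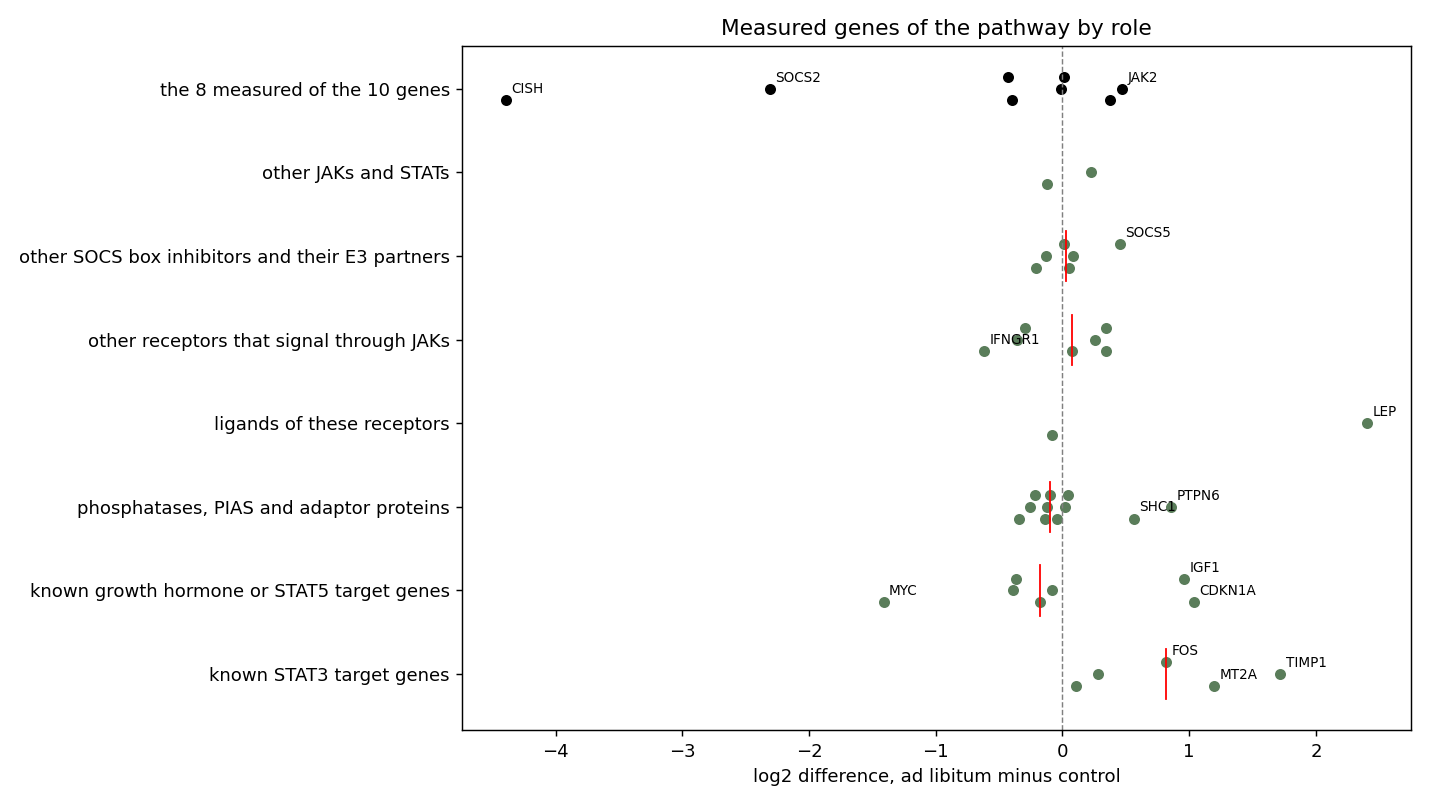
Log2 difference, ad libitum minus control (x axis), of each measured gene, grouped by role in rows. Each point is a gene (its highest-mean probe set), and red lines are medians of lists with more than 4 genes. CISH (-4.40) and SOCS2 (-2.31) have the lowest values shown and LEP (2.41) the highest.

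With any 1 dog left out, the differences of CISH and SOCS2 kept most of their size. Their sign could not change, because all ad libitum dogs lay below all control dogs. Both genes were chosen with these differences known, so their ranges are a description. CISH ran from -4.74 without ad libitum dog 6 to -4.15 without ad libitum dog 2, and SOCS2 from -2.58 without ad libitum dog 8 to -2.04 without ad libitum dog 7. The ranges were -0.55 to -0.27 for GHR, -0.45 to -0.28 for STAT5B, 0.26 to 0.50 for STAT3 and 0.35 to 0.72 for JAK2. JAK1 and STAT5A crossed 0, from -0.080 to 0.062 and from -0.076 to 0.14.

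**Figure D5:**
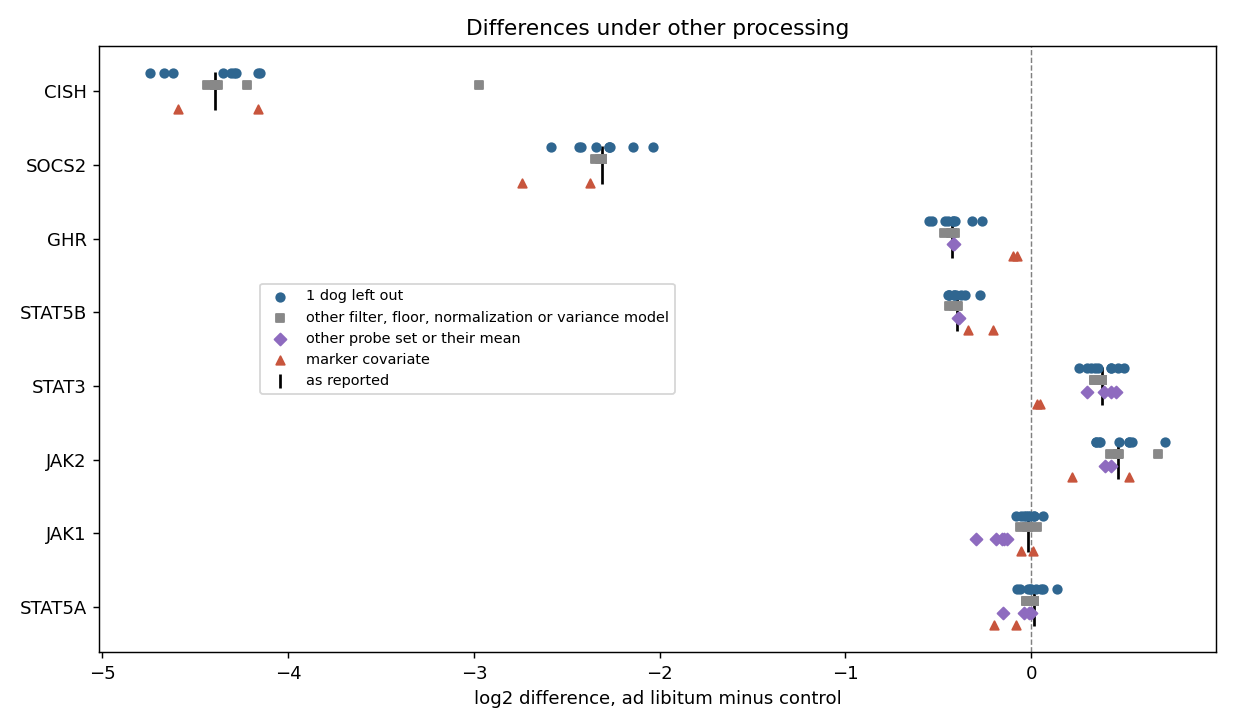
Log2 difference, ad libitum minus control (x axis), of the 8 measured genes as reported (black bars) and under other processing (symbols by kind of alternative). CISH moves to -2.97 under the floor at log2 4, GHR and STAT3 move to within 0.1 of 0 with a marker covariate, and JAK1 and STAT5A lie on both sides of 0.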

How the data were processed

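Skeletal muscle RNA of 9 dogs was measured on 1 array each. The authors made the values with GCRMA, per the submitters' processing notes, a method that corrects background by probe sequence and normalizes arrays by quantiles, which hides a shift common to most transcripts. The deposited values were taken as log2 from their range, 0.652 to 16.6, because no source used here states the base. Per the labels' protocols, biotin labelling used 3' amplification reagents. No batch or scan date is given.

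Of 43035 probe sets, 111 controls were dropped, and limma 3.58.1 (R 4.3.3) was run on the 18394 that exceeded log2 4 on 4 or more arrays (default eBayes, two-sided, 7 residual and 2.32 prior degrees of freedom, Benjamini-Hochberg adjustment over all tested, threshold 0.05). Precision is limited by the number of arrays, and the median standard error was 0.197. Gene names came from the 2016 platform annotation, which gives 1 symbol to 29264 probe sets, several to 439 (not named here) and none to 13332. The limma step was tested on simulated data.

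Named were the 10 genes, any measured gene of the pathway lists, each by its highest-mean probe set, the 4 genes whose deviations from the group means resembled those of CISH and of SOCS2 most, and marker genes. The genes and lists were chosen with earlier results of these data known. The alternatives were other filters, a floor at log2 4, cyclic loess, median centring, 3 other variance models, array weights, marker covariates, other probe sets, an adjusted p under 0.10, a two-sided exact permutation test and leaving out each dog.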

Additional observations from a re-analysis of the deposited data

Results flagged for a closer look

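Within each group the highest and the lowest dog were set against the others for each of the 10 genes, 20 sets of values in all, and chance alone sets a dog apart in about 1 of 20. In 3 of them 1 dog stood apart. SOCS2 in control dog 3 read 7.34, while the other 3 control dogs lay between 7.79 and 7.81; it was still above all ad libitum dogs. STAT5B in ad libitum dog 5 read 8.17, with the next dog of its group at 8.69, and without it the log2 difference of STAT5B was -0.28 in place of -0.40. SOCS3 in ad libitum dog 5 read 2.47, with the next dog at 2.22, both below the filter at log2 4. Dog 5 was also the highest in macrophage and fibroblast markers, and their part in these 2 values was not tested.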

How the results depend on the processing

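The number of probe sets past an adjusted p of 0.05 was 0 as reported and under every other setting, except for 1 with the floor at log2 4 (CISH) and 1 without ad libitum dog 8, so that leaving out a dog gave 0 to 1. Without dog 8 it was LOC489640 (-3.97, limma adjusted p = 0.0411), named after its value was seen. The number with an unadjusted limma p under 0.05, 1088 as reported, was 695 when ad libitum dog 5 was left out, 2151 when ad libitum dog 7 was, 1865 with array weights, and 476 and 442 with the adipocyte and macrophage covariates. The filter at log2 6 left JAK2 and STAT5A without a representative probe set. STAT5A turned from 0.012 to -0.030 with median centring, -0.029 with array weights, -0.20 and -0.080 with the adipocyte and macrophage covariates, -0.0024, -0.15 and -0.011 on its other probe sets and -0.038 on the mean of all 4 probe sets. JAK1 turned from -0.016 to 0.032 with array weights and 0.0092 with the adipocyte covariate. With a dog left out JAK1 ran from -0.080 to 0.062 and STAT5A from -0.076 to 0.14. CISH was -2.97 with the floor. The cause of these turns was not tested. CISH, SOCS2, GHR, JAK2, STAT3 and STAT5B kept their sign in all settings run. For CISH, SOCS2 and STAT5B, leaving out a dog could not turn it, because their groups did not overlap on the representative probe sets. GHR and STAT3 lay near 0 with the marker covariates. GHR was at -0.078 with the macrophage and -0.099 with the adipocyte covariate, and STAT3 at 0.046 and 0.029. The GAPDH 3' minus 5' difference of 0.12 ran from 0.076 to 0.16 with a dog left out, and without control dog 4 the exact permutation p was 0.0357. No paired analysis was possible because the groups share no animal number.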

Other observations

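Likeness to CISH and SOCS2 was read as Pearson's r between deviations from the group means over the 9 dogs, as a description. The 4 highest for each gene were picked from a search over the 13887 tested probe sets with 1 symbol. Among so many, a high r over 9 dogs can arise by selection alone, and shared regulation was not tested. The genes most like CISH were TBC1D31 (r = 0.964), XPO7 (0.93), LEO1 (0.922) and SOX5 (0.92), and their own log2 differences between the groups were 0.16, 0.017, 0.0025 and 0.039. The genes most like SOCS2 were RPL23 (r = 0.946), PROCR (0.939), DTNA (0.937) and TFB1M (0.936), with log2 differences of -0.11, 0.38, -0.59 and -0.15. The points share the array and its normalization, and the 5 ad libitum values of CISH lie below log2 4, so that their order has little meaning.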
